A study of Homo sapiens with 6 samples.

Results

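The S100 genes encode small calcium-binding proteins, and 10 of them were followed here in an oral squamous cell carcinoma line kept under low oxygen. The members were taken from the deposited count table by symbol: S100A2, S100A4, S100A6, S100A7, S100A8, S100A9, S100A10, S100A11, S100A14 and S100A16. All 10 were found among the 21776 genes of the table, and all 10 passed the filter on low counts that left 14255 genes for testing. The libraries are labelled as SCC25, a wild-type established line, although a figure legend of the study names SCC9. One condition was hypoxia (1% O2, 5% CO2 and balanced N2) and the other was normoxia (5% CO2 and 95% air), each for 12 h. Each condition had 3 libraries, with 30186813 to 36076088 counts under hypoxia and 29637189 to 37278703 under normoxia. The labels do not say that the libraries came from separate cultures, so p-values measure the spread between these libraries, which may be technical.

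S100 proteins are EF-hand proteins that mostly work as dimers. Calcium binding opens a groove that holds target proteins such as annexins or myosin, and several members are also released from cells, where they act on receptors such as RAGE (gene AGER) and TLR4. S100A10 is an exception in the family, since its EF-hands do not bind calcium. Most S100A genes lie in a cluster on chromosome 1 around the epidermal differentiation complex, the genes that build the cornified layer of squamous epithelium, and S100A2, S100A7, S100A8, S100A9 and S100A14 are well known from that tissue. In the GO annotation deposited with the counts, all 10 members carry the term calcium ion binding, S100A10 included, against 3.06% of the 12420 tested genes with a term. The term RAGE receptor binding is given to 4 members, namely S100A4, S100A7, S100A8 and S100A9, and to 7 of those tested genes in all.

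The libraries had the markers of the labelled cell type, with 1 exception. KRT5, TP63, EPCAM, CDH1, SFN and KRT17, genes of squamous and simple epithelium, were all measured. In normoxia KRT5 was at 126 ± 9.9 CPM (CPM, counts relative to the normalized library total, SD, n = 3) and CDH1 at 188 ± 10.9 CPM (SD, n = 3). KRT17 was at only 8.18 ± 0.327 CPM in normoxia (SD, n = 3). Several of them changed under hypoxia: by edgeR's adjusted p, CDH1 (log2-fold change 1.35) and KRT17 (1.06) were higher and SFN (-0.80), EPCAM (-0.35) and KRT5 (-0.18) were lower. KRT14, the basal keratin partner of KRT5, had 0, 0 and 0 counts under hypoxia and 0, 1 and 0 under normoxia. S100A8 and S100A9 are also abundant in myeloid cells, and the myeloid list had 5 of its 7 genes in the table, with summed counts of 1032, 1405 and 1295 under hypoxia and 1252, 945 and 1063 under normoxia. CD68, a lysosomal gene, was the most abundant of them, while PTPRC, the gene of the leukocyte antigen CD45, had 0, 0 and 2 counts under hypoxia and 0, 0 and 0 under normoxia. CSF3R, a granulocyte receptor gene, had 0, 2 and 0 counts under hypoxia and 0, 0 and 0 under normoxia. CD14 was higher under hypoxia (5.83 ± 0.445 against 1.07 ± 0.481 CPM, SD, n = 3, log2-fold change 2.45, standard error (SE) 0.246, adjusted p = 7.27e-08 by the quasi-likelihood test of edgeR over all genes tested). Fibroblast and endothelial genes had summed counts of 685, 723 and 591 under hypoxia and 160, 98 and 187 under normoxia, mostly from COL1A1, while COL3A1 had at most 2 counts in any library. Their part in the results below was not tested. Of the 15 genes of the hypoxia response list all were higher under hypoxia, beside 39.2% of all genes tested, with CA9 at 277 ± 15.4 against 42.4 ± 22 CPM (SD, n = 3).

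Hypoxia changed the S100A genes in both directions. At an adjusted p-value under 0.05 by edgeR's quasi-likelihood test over all 14255 genes, 4 members were higher (S100A14, S100A4, S100A6 and S100A10), 5 were lower (S100A7, S100A2, S100A16, S100A8 and S100A11), and S100A9 did not pass. The same test called 77.8% of all genes tested, 39.2% as higher and 38.5% as lower, so 9 of 10 members is near the background. In such bulk RNA, fewer cells that express a gene and less RNA per cell cannot be told apart. The median log2-fold change of the members was -0.10, beside 0.023 over all genes tested. Only S100A14 changed by more than 1 on the log2 scale, a size that 30.4% of all genes reached with a call. The 9 members that were called were also those whose hypoxia and normoxia libraries did not overlap in CPM, against 80.5% of all genes tested (40.6% higher, 39.9% lower).

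**Figure D1:**
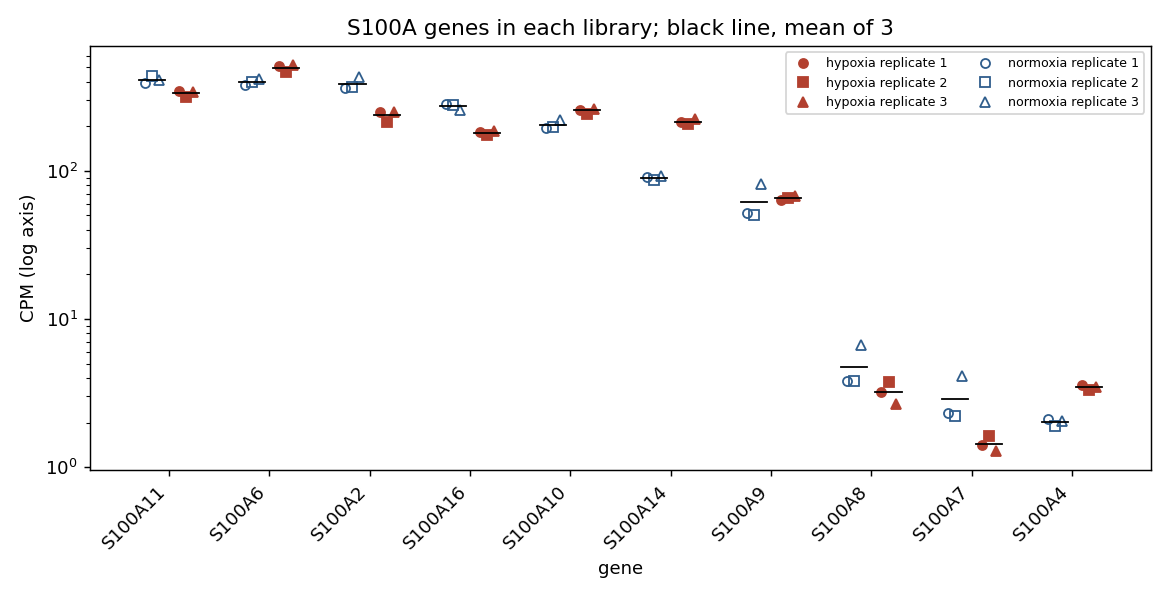
CPM of each S100A gene (log axis) in the 3 hypoxia libraries (filled red) and the 3 normoxia libraries (open blue), with a black line at the mean of each condition. S100A14 stands higher in every hypoxia library, and in normoxia replicate 3 (open triangles) S100A7, S100A8 and S100A9 stand above the other normoxia libraries.

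S100A14, a gene of epithelial surfaces, had the largest change of the family. It was measured at 215, 207 and 224 CPM under hypoxia and at 90.8, 87.4 and 91.7 CPM under normoxia. The conditions lay far apart, and the spread within each was small. The log2-fold change was 1.26 (SE 0.0535, edgeR adjusted p = 1.2e-12), which is 2.39-fold, and it stayed between 1.22 and 1.28 with each library left out in turn. By p-value S100A14 was at position 298 of the genes tested, and 78% of all genes had a smaller change in size. In normoxia its SD on the log2 CPM scale was 0.0364, beside a median of 0.108 over all genes tested.

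S100A16 lies next to S100A14 on the same strand, and their proteins are known to bind each other. Its levels were 182, 175 and 187 CPM under hypoxia and 281, 279 and 258 CPM under normoxia, with no overlap between the conditions. The log2-fold change was -0.59 (SE 0.0538, edgeR adjusted p = 2.02e-08). The neighbouring genes thus moved in opposite directions. Not corrected for length, there were 1.18, 1.18 and 1.19 S100A14 counts for each S100A16 count under hypoxia, and 0.323, 0.313 and 0.355 under normoxia. On the log2 scale this ratio differed by 1.85 between the conditions, and the pair was chosen for the ratio after the values had been seen, so no test is given. Their coding sequences are 48.2% identical, and no run of 50 bases of either gene was found in a transcript of another gene in GENCODE v29.

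S100A2, the next gene of the cluster beside S100A16, encodes a mostly nuclear protein of basal keratinocytes. It was measured at 248, 213 and 251 CPM under hypoxia and at 360, 368 and 429 CPM under normoxia. All hypoxia libraries were lower than all normoxia libraries, of which replicate 3 was the highest. S100A2 fell by 0.70 on the log2 scale (SE 0.0721, edgeR adjusted p = 9.05e-08), from 386 ± 37.7 to 237 ± 21.2 CPM (SD, n = 3).

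The sequences before the annotated starts of these 3 neighbouring genes are shown because the genes stand side by side and differ in direction. They are the bases of RefSeq windows (GRCh38.p14, minus strand, written 5′ to 3′) from 250 bases before each start up to the first exon of the gene in GENCODE v29. Capitals mark the core of the hypoxia response element, searched as ACGTG and GCGTG on both strands (so also as CACGT and CACGC), and the AP-1 site TGANTCA.
S100A2, chr1:153565866-153566094: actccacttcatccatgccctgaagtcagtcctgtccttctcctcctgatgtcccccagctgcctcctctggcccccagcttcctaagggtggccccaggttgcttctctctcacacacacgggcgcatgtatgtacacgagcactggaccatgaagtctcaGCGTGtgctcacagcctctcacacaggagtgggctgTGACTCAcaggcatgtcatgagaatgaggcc
S100A16, first start, chr1:153613146-153613387: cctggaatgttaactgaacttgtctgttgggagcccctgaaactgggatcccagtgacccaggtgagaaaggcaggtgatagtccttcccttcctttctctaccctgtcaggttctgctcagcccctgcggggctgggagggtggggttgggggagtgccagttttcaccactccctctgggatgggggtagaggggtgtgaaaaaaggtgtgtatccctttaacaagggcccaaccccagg
S100A16, second start, chr1:153609356-153609605: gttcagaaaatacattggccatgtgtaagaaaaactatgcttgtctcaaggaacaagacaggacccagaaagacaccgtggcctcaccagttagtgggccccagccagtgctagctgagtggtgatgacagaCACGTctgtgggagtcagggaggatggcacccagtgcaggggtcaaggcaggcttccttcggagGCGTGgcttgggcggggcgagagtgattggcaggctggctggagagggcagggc
S100A14, chr1:153616356-153616575: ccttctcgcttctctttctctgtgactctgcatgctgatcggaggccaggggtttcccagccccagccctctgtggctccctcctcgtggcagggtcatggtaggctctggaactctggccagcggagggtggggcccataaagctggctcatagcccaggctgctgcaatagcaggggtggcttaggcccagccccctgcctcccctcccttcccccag
All 10 members had at least 1 window in the RefSeq table, and all were searched in the same way over 250 bases. S100A14, the member that rose most, had none of these letters. S100A16 had ACGTG 118 bases and GCGTG 54 bases before its second start and none before its first, and S100A2 had GCGTG 88 bases and TGANTCA 52 bases before its first start, positions being those of the first base of the match. The window of the second S100A2 start had no match and lay wholly within exons of the gene, so it is not printed. S100A10 and S100A11 had 1 GCGTG each and S100A6 had 2, while the windows of S100A4, S100A7, S100A8 and S100A9 had no match. The windows of S100A10 and S100A6 lie wholly within exons that GENCODE v29 gives to the same gene, and so does the match of S100A11, 9 bases before its start. Among all 35116 windows of this length in the table, 18.5% held ACGTG, 32.2% held GCGTG and 6.57% held TGANTCA. A match is only a description of the letters.

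S100A6 and S100A10 rose by about the same amount. S100A6, also called calcyclin, was at 511, 466 and 517 CPM under hypoxia and at 381, 399 and 419 CPM under normoxia. Its log2-fold change was 0.32 (SE 0.0558, edgeR adjusted p = 5.66e-05). S100A10, or p11, forms a complex with annexin A2 at the inner face of the plasma membrane and there binds plasminogen. It was measured at 259, 244 and 263 CPM under hypoxia and at 195, 197 and 220 CPM under normoxia, with a log2-fold change of 0.32 (SE 0.0576, edgeR adjusted p = 6.37e-05). For both genes all hypoxia libraries exceeded all normoxia libraries, although the difference was only 1.25-fold.

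S100A11 lies beside S100A10 and changed the other way. This partner of annexin A1 was at 348, 316 and 343 CPM under hypoxia and at 394, 437 and 408 CPM under normoxia, without overlap. It fell by 0.30 on the log2 scale (SE 0.056, edgeR adjusted p = 0.000102). Of its runs of 50 bases, 1.9% also occur in 1 other gene of GENCODE v29, AC006483.1, which has no row under that name in the count table, so the assignment of a small part of the S100A11 counts is uncertain.

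S100A4, known for its binding to non-muscle myosin and its link to cell motility, was present at a low level. It had 109, 123 and 113 counts under hypoxia and 79, 54 and 61 under normoxia, or 3.57, 3.31 and 3.48 against 2.12, 1.89 and 2.06 CPM. The conditions did not overlap, and the log2-fold change was 0.77 (SE 0.201, edgeR adjusted p = 0.0022). Only S100A7 and S100A8, with similarly few counts, had a larger SE among the members.

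S100A7, S100A8 and S100A9, the antimicrobial and secreted members, set the widest spread among the normoxia libraries. S100A7, or psoriasin, had 43, 60 and 42 counts under hypoxia and 86, 63 and 122 under normoxia, which is 1.41, 1.61 and 1.29 against 2.31, 2.2 and 4.12 CPM. All hypoxia libraries were lower, and S100A7 fell by 0.99 on the log2 scale (SE 0.278, edgeR adjusted p = 0.00371). Normoxia replicate 3 was well above the others, and without it the change was -0.66 (edgeR adjusted p = 0.0417). Of the runs of 50 bases of S100A7, 14.2% are shared with its near copy S100A7A (96.1% identical coding sequence), which had 0, 0 and 0 counts under hypoxia and 1, 1 and 3 under normoxia.

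S100A8 and S100A9 form calprotectin, a heterodimer that binds zinc and manganese, and of the pair only S100A8 was called. S100A8 had 98, 140 and 86 counts under hypoxia and 143, 109 and 196 under normoxia, which is 3.21, 3.76 and 2.65 against 3.84, 3.81 and 6.63 CPM. The highest hypoxia library lay just under the lowest normoxia library. The log2-fold change was -0.56 (SE 0.225, edgeR adjusted p = 0.031). The call rested on single libraries: the change was -0.27 without normoxia replicate 3 (edgeR adjusted p = 0.248), -0.56 without hypoxia replicate 1 (adjusted p = 0.0618) and -0.45 without hypoxia replicate 3 (adjusted p = 0.122).

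S100A9 was at 63.6, 65.1 and 67.5 CPM under hypoxia and at 51.6, 50.5 and 81.8 CPM under normoxia. The hypoxia libraries were close together and lay between the normoxia libraries. The log2-fold change of 0.096 (SE 0.126, edgeR adjusted p = 0.492) did not pass. Without normoxia replicate 3 it was 0.34 (edgeR adjusted p = 9.95e-06), and without normoxia replicate 1 or 2 it was -0.03 or -0.031. S100A9 had 19.8, 17.3 and 25.5 counts for each S100A8 count under hypoxia and 13.4, 13.3 and 12.4 under normoxia. In this ratio, which does not depend on the scaling of a library, normoxia replicate 3 did not stand apart. The log2 ratio of S100A8 to S100A9 was -4.36 ± 0.283 under hypoxia and -3.7 ± 0.0646 under normoxia (SD, n = 3), and the conditions did not overlap (exact permutation test, two-sided, p = 0.1, which is the smallest that 3 libraries against 3 allow).

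In normoxia replicate 3, log2 CPM exceeded the mean of replicates 1 and 2 by 0.85 for S100A7, 0.78 for S100A8, 0.68 for S100A9 and 0.24 for S100A2. Over all genes tested the median of this difference was 0.00077. TP63, the squamous lineage factor, showed it as well, at 53.3, 52.4 and 82.5 CPM in normoxia replicates 1 to 3. Of the 15 hypoxia response genes, 13 were also highest in that library among the normoxia libraries, against 37.2% of all genes tested. CA9 was at 32.2, 27.3 and 67.7 CPM in normoxia replicates 1 to 3, NDRG1 was at 163, 140 and 409 CPM, and EGLN3 was at 5.86, 3.74 and 10.7 CPM. The 2 tested myeloid markers and the 3 tested fibroblast and endothelial markers were highest there as well, with median differences of 0.53 and 0.69. The 4 tested SPRR genes of the cornified envelope were lowest in that library, SPRR2A with 5.24, 5.94 and 1.72 CPM and SPRR2D with 8.28, 7.72 and 3.38 CPM. IVL, or involucrin, another envelope gene, was highest there, at 0.645, 0.349 and 0.879 CPM. The part of this library in the changes of S100A7, S100A8 and S100A9 is given by the values without it above, and why it differed was not tested.

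**Figure D2:**
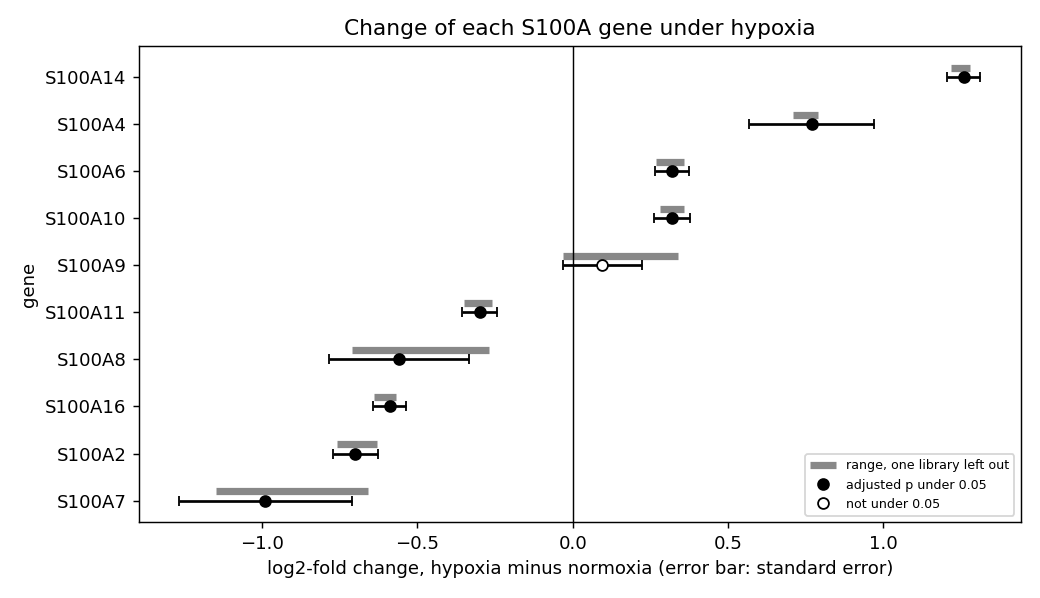
Log2-fold change of each S100A gene, hypoxia minus normoxia, with its SE (filled, adjusted p under 0.05; open, not) and in grey the range when one library was left out. S100A14 is at 1.26 and S100A7 at -0.99, and the grey range of S100A9 runs from -0.031 to 0.34, across 0.

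Levels of different genes can be compared only per length, for which the deposited FPKM were used (counts scaled by gene length and library total). S100A6 had the highest level in both conditions, at 775 ± 34.9 FPKM in normoxia and 997 ± 43.5 FPKM under hypoxia (SD, n = 3). In normoxia it was followed by S100A11 (721 ± 26.4 FPKM, SD, n = 3), S100A2 (345 ± 34.7), S100A10 (299 ± 21.5), S100A16 (164 ± 7.91), S100A9 (105 ± 31) and S100A14 (74.8 ± 3.01). S100A7 (6.61 ± 2.5), S100A8 (6.45 ± 2.21) and S100A4 (3.54 ± 0.272) were far lower. The ranges of S100A2 and S100A10 overlapped, and so did those of S100A7 and S100A8, while the other neighbours in this order did not overlap. S100A6 and S100A11 came close, since the lowest S100A6 library and the highest S100A11 library were both at 750 FPKM when rounded.

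Under hypoxia the order was S100A6, S100A11, S100A10, S100A2, S100A14, S100A9, S100A16, S100A4, S100A8 and S100A7. S100A14 went from the 7th to the 5th level of the family, at 185 ± 4.98 FPKM (SD, n = 3), and S100A10 passed S100A2 (387 ± 10.4 against 219 ± 16.9 FPKM). The ranges of S100A9 and S100A16 overlapped here, as did those of S100A8 and S100A7. By mean FPKM in normoxia, S100A6 lay above 99.7% of the genes in the table, S100A9 above 97.4% and S100A14 above 96.2%, whereas S100A4 lay above 63.6%.

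The summed counts of the 10 genes took nearly the same part of the library in both conditions. Their share of all counts was 0.186%, 0.175% and 0.187% under hypoxia and 0.176%, 0.176% and 0.19% under normoxia, so the conditions overlapped (two-sided exact permutation test, p = 1). What differed was the make-up of the sum. S100A14 gave 12% of it under hypoxia and 4.9% in normoxia, S100A6 gave 27.7% and 21.8%, and S100A10 gave 14.2% and 11.1%. S100A2 gave 13.2% under hypoxia and 21% in normoxia, S100A16 gave 10.1% and 14.9%, and S100A11 gave 18.7% and 22.5%.

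**Figure D3:**
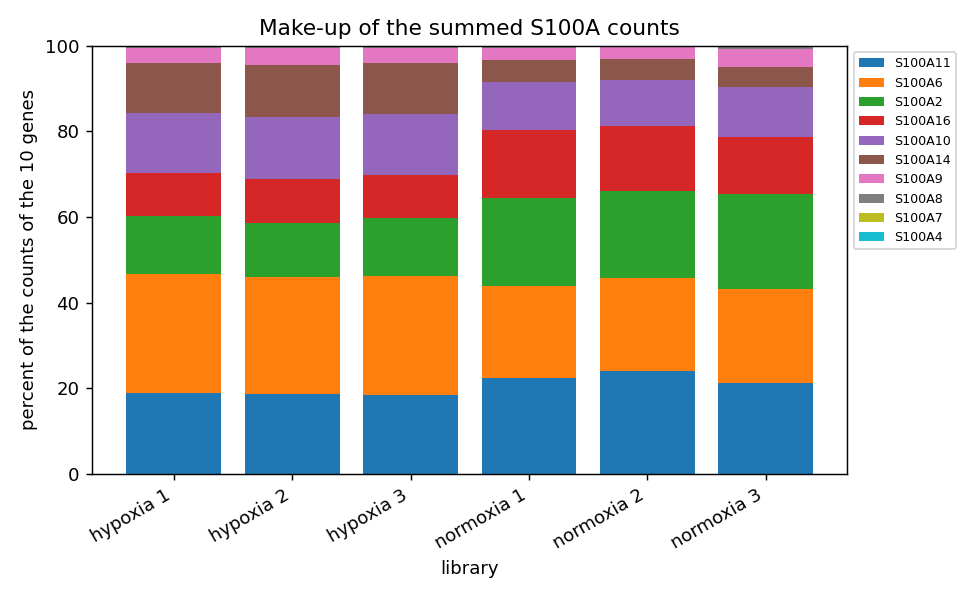
Part of the summed counts of the 10 S100A genes that each gene takes, in percent, in each of the 6 libraries. The brown segment, S100A14, is 12% on average under hypoxia and 4.9% in normoxia, while the green segment, S100A2, is 13.2% and 21%.

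Of the other S100 genes, S100A3 and S100A13 were tested and 5 more of the 11 listed had too few counts. S100A3, a gene known from hair cuticle, had 98, 102 and 64 counts under hypoxia and 60, 48 and 55 under normoxia, with a log2-fold change of 0.62 (SE 0.248, edgeR adjusted p = 0.0298). The call was lost without any one of 4 libraries: the edgeR adjusted p was 0.153 without hypoxia replicate 1, 0.0767 without hypoxia replicate 2, 0.0829 without normoxia replicate 1 and 0.0585 without normoxia replicate 2, with changes from 0.46 to 0.60. S100A13 was at 28 ± 2.26 CPM under hypoxia and 30.1 ± 1.47 CPM in normoxia (SD, n = 3), and its change of -0.10 did not pass (edgeR adjusted p = 0.231). S100A5, S100A7A, S100A12, S100P and S100Z had at most 20 counts in any library. The fused-type genes, in which an S100 domain heads a long repeat protein, were almost absent, with FLG, TCHH and TCHHL1 at 5 or fewer counts in any library.

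Along the cluster, genes that rose and genes that fell lay in the same stretch. In their order on the chromosome, which was taken from GENCODE v29, 12 S100 genes were tested and form 11 consecutive pairs, other genes between them being passed over, such as the epidermal differentiation complex between S100A11 and S100A9. The log2-fold changes had opposite signs in 7 of these pairs, and in 4 of the 7 both genes were called. Of all genes tested, 39.2% were called higher and 38.5% lower, and such pairs were not counted among other genes. Whether these counts are particular to the S100 genes was therefore not tested. Those 4 pairs were S100A10 with S100A11, S100A7 with S100A6, S100A3 with S100A2, and S100A16 with S100A14. The epidermal differentiation complex between S100A11 and S100A9 had 36 genes on the list, of which 5 were tested, 4 were lower and 0 were higher. SPRR2D, a small proline-rich protein of the cornified envelope, had 10, 2 and 5 counts under hypoxia and 308, 221 and 100 in normoxia (edgeR adjusted p = 6.48e-09). SPRR2A had 5, 2 and 5 counts against 195, 170 and 51, SPRR1B had 8, 10 and 0 against 105, 69 and 39, and SPRR2E had 0, 1 and 0 against 97, 59 and 23. All 4 were called lower, and no fold is given over so few hypoxia counts. Among 8 tested genes that flank the S100 genes without being one, 4 were higher and 3 lower, with a median of 0.10. NPR1, which encodes a natriuretic peptide receptor, was called as higher with 15, 19 and 23 counts against 2, 3 and 2 (edgeR adjusted p = 0.000207), and the normoxia counts are too few for a fold. ILF2, an RNA-binding factor gene, fell by 1.00 on the log2 scale, and SLC27A3, a fatty acid transport protein gene, rose by 0.45.

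**Figure D4:**
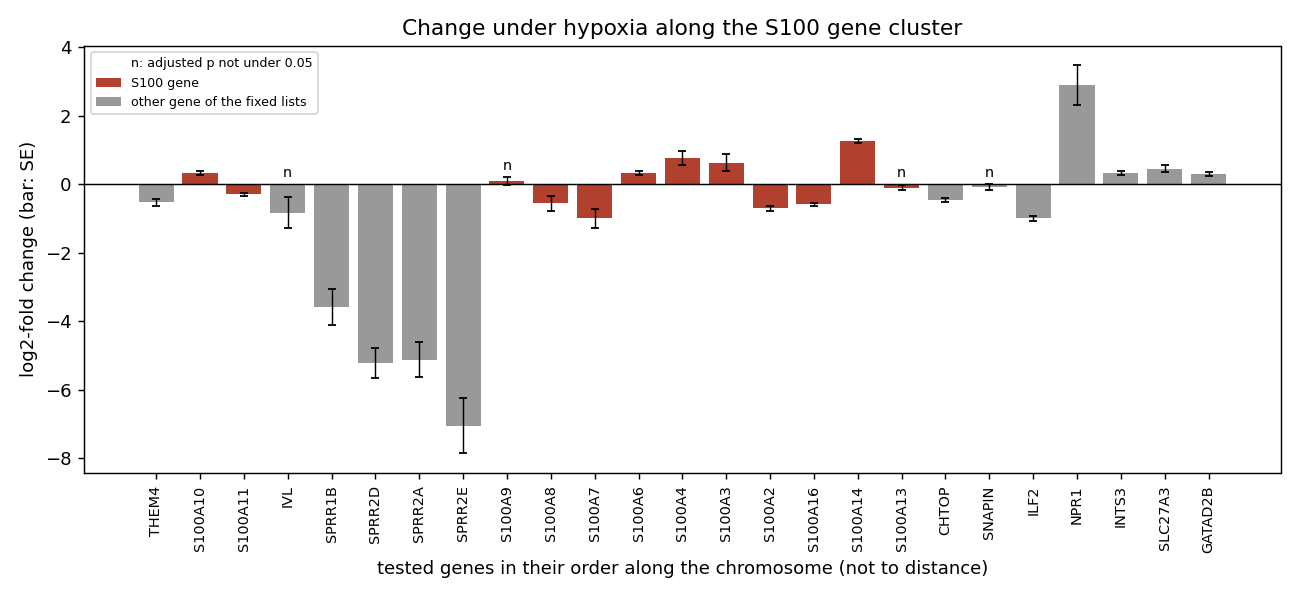
Log2-fold change with its standard error for the 25 tested listed genes in their order along chromosome 1, not drawn to distance (S100 genes in red, others in grey, n where the adjusted p was not under 0.05). Signs differ in 7 of the 11 consecutive pairs of tested S100 genes, while the SPRR genes between S100A11 and S100A9 are all lower.

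The intracellular partners of the S100 proteins were all called, 6 of 12 as higher and 6 as lower, with a median log2-fold change of 0.0024, beside 77.8% of all genes tested that were called (39.2% higher, 38.5% lower). ANXA2, which binds S100A10, was at 1524, 1422 and 1514 CPM under hypoxia and at 1804, 1881 and 1873 CPM in normoxia, a log2-fold change of -0.32 (SE 0.0504, edgeR adjusted p = 1.88e-05). S100A10 and ANXA2 changed in opposite directions. Their log2 ratio of counts was -2.54 ± 0.0155 under hypoxia and -3.18 ± 0.0856 in normoxia (SD, n = 3), without overlap (exact permutation test, two-sided, p = 0.1). AHNAK, a very large scaffold protein that binds the complex of S100A10 and annexin A2, rose by 1.28 (SE 0.0754, edgeR adjusted p = 6.05e-11), from 1157 ± 154 to 2818 ± 152 CPM (SD, n = 3).

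CACYBP, the calcyclin-binding protein and partner of S100A6, was at 61.6, 55.9 and 60.2 CPM under hypoxia and at 138, 152 and 127 CPM in normoxia. It fell by 1.23 on the log2 scale (SE 0.0669, edgeR adjusted p = 2.29e-11), while S100A6 rose. MYH9, the heavy chain of the myosin bound by S100A4, rose by 0.30 (SE 0.0478, edgeR adjusted p = 1.93e-05). KCNK3, a potassium channel that S100A10 helps to reach the membrane, had 114, 145 and 132 counts under hypoxia and 4, 3 and 9 in normoxia (log2-fold change 4.50, SE 0.353, edgeR adjusted p = 2.68e-09). ANXA1, the partner of S100A11, changed by only -0.12 with overlapping conditions (edgeR adjusted p = 0.0455, which was 0.433 with at least 10 counts in every library). IQGAP1, a scaffold protein gene (0.13, edgeR adjusted p = 0.0314), also lost its call in several alternatives.

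The receptors for released S100 proteins differed. TLR4 was at 4.88, 4.46 and 5.86 CPM under hypoxia and 6.45, 8.11 and 7.17 CPM in normoxia, and it fell by 0.51 on the log2 scale (SE 0.152, edgeR adjusted p = 0.0054). AGER, which encodes RAGE, had 4.78, 4.27 and 4.13 against 3.6, 3.15 and 3.62 CPM, and its change of 0.34 (SE 0.171) did not pass (edgeR adjusted p = 0.0762), although its conditions did not overlap. With at least 10 counts in every library AGER was called (0.42, edgeR adjusted p = 0.0304), and in the other count fits it was not. That filter moved the log2-fold changes of all shared genes by a median of 0.077, so the gained call is not particular to AGER. BSG, or CD147, a receptor for S100A9, was at 747 ± 30.8 against 569 ± 22.2 CPM (SD, n = 3) and rose by 0.39 (SE 0.0522, edgeR adjusted p = 2.34e-06). ALCAM rose by 0.39 and NPTN changed by 0.015 (edgeR adjusted p = 0.813), while CD36 and CD69 had at most 7 counts in any library. These are levels of RNA in the tumor cells, and no receptor on other cells was measured.

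**Figure D5:**
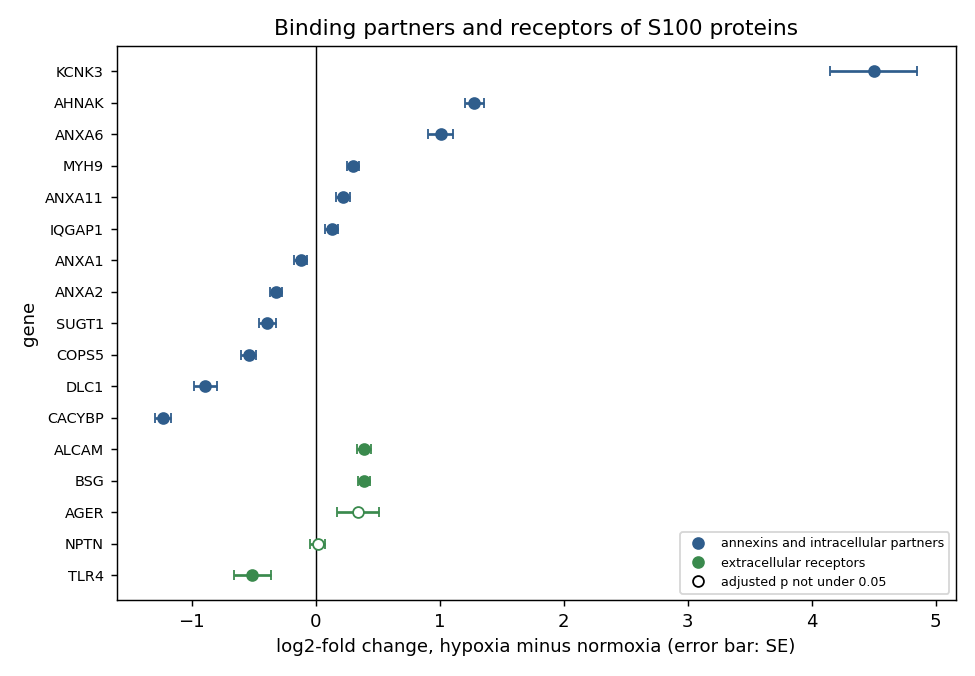
Log2-fold change with its standard error for intracellular partners (blue) and receptors (green) of S100 proteins, open where the adjusted p was not under 0.05. KCNK3 at 4.50, over few normoxia counts, and CACYBP at -1.23 mark the ends of the range.

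Genes with the most similar pattern were sought for the 3 members with the largest changes, by the Euclidean distance of centred log2 CPM over the 6 libraries, among 9744 genes outside the family with a mean log2 CPM of at least 3. S100A14 was closest to EEF1A2 (distance 0.1, log2-fold change 1.23), IL10RB (0.102, 1.25) and PPP2R5B (0.105, 1.27), and 188 genes lay within 0.3 of it. S100A4 was closest to STK16 (distance 0.0723), GSTK1 (0.0776) and GATD1 (0.0895), with 542 genes within 0.3. S100A7 had 0 genes within 0.3 and was closest to ASPM at 0.538, KIAA1549L at 0.555 and KIF14 at 0.573. It had 1 high normoxia library and also few counts (mean log2 CPM 1.13, below that of the genes searched). The part of each in these distances was not tested. The distance takes in both the difference between the conditions and the spread within them, over 6 libraries that all genes share.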

How the data were processed

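The authors deposited raw counts per gene (whole numbers, not normalized) and FPKM for the same 21776 genes. The submitters' processing notes name the mouse builds GRCm38 and mm10, although the table holds human symbols. The aligner, the counting tool, the annotation and the use of strand are not given in the sources used here. The FPKM of 21775 genes followed from the counts, 1 length and the library totals within a relative tolerance of 0.0001.

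The test was edgeR 4.0.16, run in R 4.3.3 (TMM, filterByExpr, glmQLFit and glmQLFTest, condition as the only term) and Benjamini-Hochberg adjustment over all 14255 genes at 0.05. The SE was obtained as the log2-fold change over the square root of the F statistic. CPM use TMM-adjusted totals, and log2 CPM a prior count of 2. Alternatives used DESeq2 1.42.0, other filters, a replicate block, fits without one library, and limma 3.58.1 on log2 FPKM with a pseudocount of 1 or 0.1 (mean FPKM of at least 1, or no filter). The FPKM alternatives were fitted over all genes that passed their filter, and gene by gene they are given for the members only. Replicates were not duplicates of each other: chi-square values per gene were 5.11 to 11.5 for pairs within a condition. The script was tested on simulated data.

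Members and gene lists were chosen with earlier results of these data known. Named genes are the members, the partners and receptors of known role, up to 4 of the largest called changes of a list (mean log2 CPM of at least 1) and the 3 nearest genes in pattern. Other list genes named, among them S100A3, IQGAP1, KRT14, PTPRC, CSF3R, SPRR2E, NPR1, RCN3, CHP1 and NUCB1, and the ratio of S100A14 to S100A16, were taken up after their values had been seen. Exon overlaps, gene order and shared runs of 50 bases came from GENCODE v29, and promoter windows from RefSeq (GRCh38.p14). The only exon overlap of a member with another gene was 23 bases of S100A6. Protein sequences were not used here, and 1 gene of the partner list and 1 of the EF-hand list are not reported here.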

Additional observations from a re-analysis of the deposited data

How the results depend on the processing

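The counts of 4 members higher and 5 lower were 4 or 5 and 4 or 5 over the alternatives, except that a log2-fold change beyond 1 left 1 higher and 0 lower. That threshold left 4338 of the 11090 genes called over all genes, and leaving out one library gave 10669 to 11390. By limma on log2(FPKM + 1), 8890 of 10976 genes were called, 4023 higher and 4867 lower. Without the filter it called 11204 of 21776, 6047 higher and 5157 lower, and on log2(FPKM + 0.1) it called 8843. The changes of S100A2, S100A4, S100A6, S100A7, S100A10, S100A11, S100A14 and S100A16 kept their direction and their call at the adjusted p-value under every alternative, and with the threshold on size S100A14 alone remained. S100A8 lost its call with at least 10 counts in every library (-0.48, edgeR adjusted p = 0.0621), on log2(FPKM + 1) with the filter (-0.41) and without it (the same value), on log2(FPKM + 0.1) (-0.48), and ranged from -0.71 to -0.27 with one library left out. S100A9 ranged from -0.031 to 0.34. The cause was not tested. The difference in the share of all counts was 0.00177 percentage points, 0.0381 for FPKM, and -0.000602 to 0.00626 with one library left out, so no direction can be given.

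Replicate numbers did not pair the libraries: deviations from the condition means correlated at 0.0175, -0.069 and 0.00122 for equal numbers, and not every library correlated best with its own number. With the replicate block 10875 genes were called, the 9 calls of the members stayed, and S100A3, ANXA1 and IQGAP1 lost theirs. Of 93 other genes of the lists, 3 uncalled ones changed sign: NPTN to -0.025 without a filter and to between -0.046 and 0.04 in fits without one library (-0.0085 without hypoxia replicate 1), RCN1 to 0.048 with at least 10 counts, and SDF4 to -0.023 without a filter and to between -0.0029 and 0.027 without one library. Both filter settings moved the genes shared with the main fit, by a median of 0.077 with at least 10 counts and of -0.041 without a filter. The moves of RCN1, SDF4 and NPTN under these settings were of about that size. The call gained by AGER and those lost by S100A8 and ANXA1 with at least 10 counts came with the same shift. At these depths, genes with 3 or fewer counts per library have no measurable level.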

Other observations

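Other EF-hand genes, from a list of 25, were measured beside the S100 genes. Of 21 tested, 8 were higher under hypoxia and 9 lower by edgeR's quasi-likelihood test, with a median log2-fold change of 0.018 beside 0.023 over all genes tested, of which 77.8% were called (39.2% higher, 38.5% lower). RCN3, a reticulocalbin of the endoplasmic reticulum, had the largest change and rose by 1.28 (1.54 ± 0.11 against 0.636 ± 0.088 CPM, SD, n = 3). CALML4 fell by 1.02 on the log2 scale (6.92 ± 0.22 against 13.9 ± 2.26 CPM, SD, n = 3). NCS1, a neuronal calcium sensor, fell by 1.10 on the log2 scale (44.1 ± 3.9 against 94.4 ± 4.9 CPM, SD, n = 3), HPCAL1 fell by 0.84, and PPP3R1, the regulatory subunit of calcineurin, fell by 0.81. CHP1, a calcineurin-like protein, rose by 0.77 (162 ± 6.89 against 95.3 ± 3.29 CPM, SD, n = 3), and the Golgi protein gene NUCB1 rose by 0.79.

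Of 4 tested antimicrobial genes of epithelium, 2 were higher and 2 lower, beside 39.2% and 38.5% of all genes tested. LCN2, an iron-sequestering protein, rose by 0.37 (1285 ± 44.8 against 995 ± 23.1 CPM, SD, n = 3), while PI3, the elastase inhibitor elafin, fell by 3.04 on the log2 scale (8.08 ± 0.652 against 66.4 ± 14.7 CPM, SD, n = 3). RNASE7 rose by 0.67 and lost its call in 3 of the 6 fits without one library.

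Transcription factor genes with known ties to squamous cells or hypoxia were called in 5 of 11 cases as higher and in 5 as lower, beside the same 39.2% and 38.5% of all genes tested. HIF1A fell by 2.26 on the log2 scale, from 320 ± 14.7 to 67 ± 10.4 CPM (SD, n = 3), whereas EPAS1, which encodes HIF-2α, rose by 1.40. Among AP-1 genes JUN rose by 1.90 and FOS by 3.55, while FOSL1 fell by 1.70. CEBPA rose by 0.98, CEBPD fell by 0.45, and TP63 changed by 0.12 without passing the test (edgeR adjusted p = 0.358, and 7.55e-06 with a change of 0.35 without normoxia replicate 3). All 15 genes of the hypoxia response list rose.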
